A study of Bos taurus with 12 samples.

Results

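Matrix metalloproteinases (MMPs) and their tissue inhibitors (TIMPs) were followed in the bovine corpus luteum after prostaglandin F2α (PGF2α), the hormone that ends the luteal phase. The genes were taken by symbol from the deposited gene tables. They were MMP1, MMP2, MMP3, MMP9, MMP11, MMP14, MMP19, TIMP2 and TIMP3, which are 7 MMP and 2 TIMP genes of 27270 genes in all. The tables hold 14 more genes with an MMP or TIMP symbol, described more briefly, and TIMP1, MMP10, MMP21 and MMP26 were not analysed here. RNA of whole luteal tissue was sequenced from 12 mixed breed cows at day 10 of the luteal phase, 1 library per cow. Controls received saline and were ovariectomized (4 cows), and the other cows received PGF2α intramuscularly (25 mg) and were ovariectomized 4 h (4 cows) or 12 h (4 cows) later. All cows, controls included, had earlier PGF2α injections to synchronize their estrous cycles. The tissue held steroidogenic, endothelial, stromal and immune cells together, so fewer cells of a type and less RNA per cell cannot be told apart.

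The MMPs are zinc-dependent enzymes that cut the proteins of the extracellular matrix and proteins on cell surfaces. Most are made as inactive precursors and become active when another protease removes a propeptide. The TIMPs bind the active site of MMPs and block it, and TIMP3, which is held in the matrix, also blocks several ADAM and ADAMTS proteases. TIMP2 has a further role, since together with MMP14, an MMP anchored in the cell membrane, it takes part in the activation of MMP2. In the corpus luteum, a gland that is built and broken down in each cycle, MMPs and TIMPs are known for their part in remodelling matrix and vessels.

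RNA levels are given in TPM, and changes are given as log2 fold changes. TPM values are corrected for transcript length and are used to set genes side by side. Log2 fold changes come from RSEM expected counts (estimated reads per gene), scaled between libraries by the TMM method and fitted by edgeR's quasi-likelihood test. Genes with an adjusted p under 0.05 over the 14481 genes tested are said to have risen or fallen. MMP3 had too few counts to be among these and was read from a second fit with no count minimum. Both PGF2α groups are compared with the same 4 controls.

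Total expected counts per library were 10263310 to 22600213 in controls, 15527149 to 22352909 at 4 h and 12471493 to 17880450 at 12 h. Control cow4285 had the lowest total of the study, and the other controls had 18572126 or more. All 10 markers of luteal steroidogenic cells were present in every cow, and 7 of the 10 had fallen at 12 h, against 25.3% of all tested genes. Cow cow4285 of the controls and cow6314 of the 12 h group stood apart from their groups. They had the highest summed TPM of 10 fibroblast markers (21041 and 19535, against group medians of 10343 and 11256). They also had the lowest summed TPM of the luteal markers in their groups (31445 and 14933). The part of this difference in the results was not tested, and for the 9 genes, calls that change without either cow are given with and without it. On the log2(TPM + 1) scale the 14481 tested genes had a median change of -0.25 at 12 h, which was 0.01 with TMM scaling, so changes at 12 h read lower in TPM. Weighted by TPM, mean transcript length came to 1413 to 1577 bases at 12 h, below the 1628 to 1728 bases of controls and the 1622 to 1746 bases at 4 h. Mitochondrially encoded genes took 7.22% to 14.1% of counts at 12 h and 6.77% to 10.0% in controls. The part of these differences in the 12 h results was tested only by the length offset and by leaving out mitochondrially encoded genes.

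In the mid-luteal controls the inhibitors stood above most of the proteases. TIMP2 was highest, with a mean of 4636 ± 591 TPM (SD, n = 4), followed by MMP2 with 285 ± 126 TPM. TIMP3 with 119 ± 17.5 TPM and MMP14 with 112 ± 34.7 TPM came next, and the values of their cows overlapped. MMP19, MMP9 and MMP11 lay lower, with means of 12.9 ± 2.47, 10.7 ± 2.93 and 6.69 ± 0.912 TPM, and each overlapped its neighbour in this order. MMP1 (0.128 ± 0.0519 TPM) and MMP3 (0.01 ± 0.02 TPM) were near the limit of detection, with 12 and 1 counts summed over the 4 control libraries. TIMP2, MMP2, the pair of TIMP3 and MMP14, the 3 middle MMPs, MMP1 and MMP3 thus formed steps whose control values did not overlap.

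**Figure D1:**
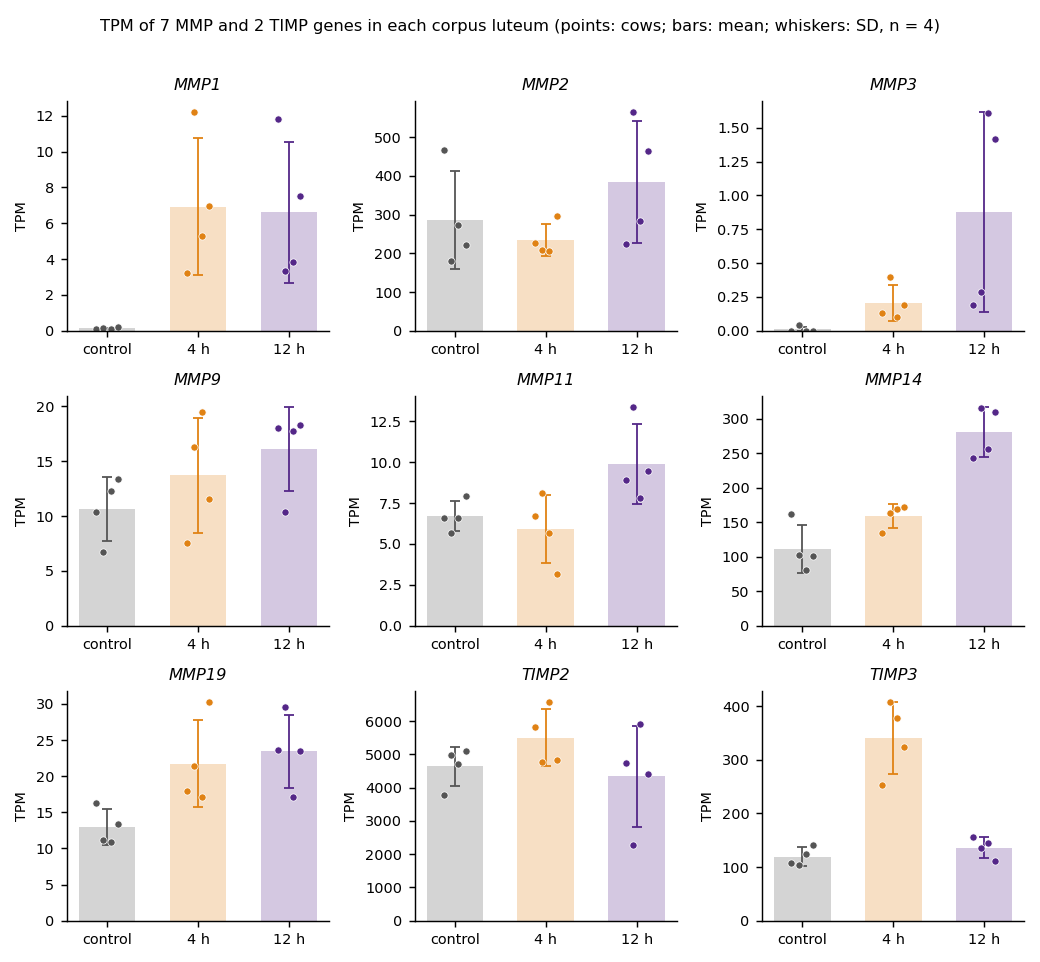
Level in TPM (y axis, linear, a scale of its own in each panel) of the 7 MMP and 2 TIMP genes in controls and at 4 h and 12 h post-PGF2α. Points are cows, bars are means and whiskers are SD (n = 4). MMP1 and MMP3 were near 0 in controls, MMP14 reached 244 to 315 TPM at 12 h, and TIMP3 reached 253 to 407 TPM at 4 h and was back at 110 to 156 TPM at 12 h.

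At 4 h post-PGF2α, 3 of the 8 genes tested rose (MMP1, MMP19 and TIMP3), and 8.65% of all tested genes rose. None of the 8 fell by edgeR, where 5.59% of all tested genes fell. No gene of the 8 had an unadjusted p under 0.05 in the downward direction, and DESeq2 called 0 falls. At 12 h, 6 of the 8 rose (MMP1, MMP9, MMP11, MMP14, MMP19 and TIMP3), against 23.6% of all tested genes. None fell at 12 h by edgeR, against 25.3% of all tested genes, with 0 by DESeq2 and 0 at an unadjusted p under 0.05. The median log2 fold change of the 8 genes was 0.49 at 4 h and 0.89 at 12 h, and that of all tested genes was -0.03 and 0.01. The genes were chosen with earlier results of these data known. Their shares and medians are therefore a description, and a distance from the background may partly follow from the choice. Between 4 h and 12 h, 3 of the 8 rose (MMP2, MMP11 and MMP14; 22.5% of all tested genes) and 1 fell (TIMP3; 24.3% of all tested genes). Together these were 4 of 8, against 46.7% of all tested genes called in either direction. On the log2(TPM + 1) scale 3 of the 8 rose at 12 h, namely MMP1, MMP14 and MMP19, where 10.4% of all tested genes rose.

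The TPM of the 4 cows lay apart from the 4 controls for 3 of the 8 tested genes at 4 h (MMP1, MMP19 and TIMP3), as it did in either direction for 19.0% of all tested genes. At 12 h it was 3 of the 8 (MMP1, MMP14 and MMP19), against 44.0% of all tested genes. MMP3, outside the 8, was apart from controls at both times. In an exact two-sided permutation test of TPM, 4 cows against 4 cannot give a p below 0.0286. Each of these separations, and those of MMP14 and TIMP3 between 4 h and 12 h, reached that value, which became 0.0771 when adjusted over the 27 tests of the 9 genes.

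**Figure D2:**
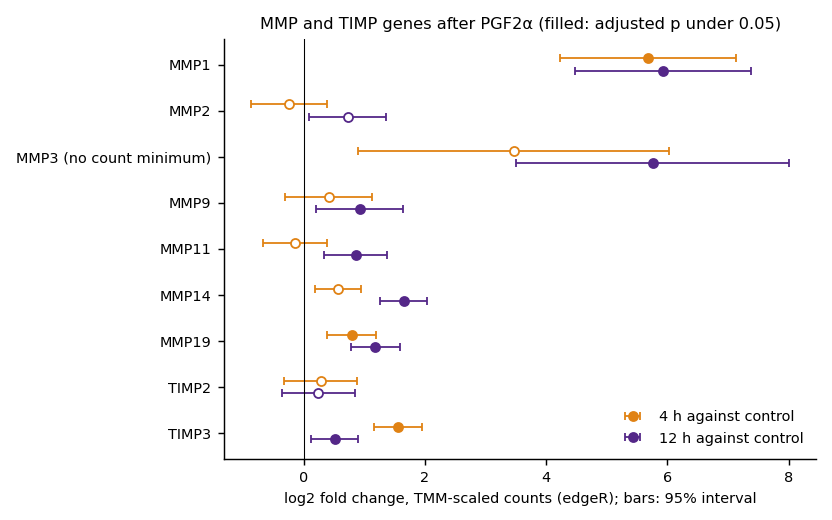
Log2 fold change (x axis) of each gene at 4 h and 12 h post-PGF2α against the same 4 controls, from edgeR on TMM-scaled counts, with 95% intervals. Points are filled where the adjusted p was under 0.05, and MMP3 was fitted without a count minimum. MMP1 stood near 5.7 and 5.9 at both times, MMP14 rose from 0.56 to 1.65, and TIMP3 went from 1.55 to 0.51.

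MMP1, the interstitial collagenase, cuts fibrillar collagen, and its transcript showed the largest fold change of the 8 genes tested. The gene lies at chr15:5811583-5820952 (ARS-UCD1.2). Controls had 0.08, 0.09, 0.15 and 0.19 TPM. The 4 h cows had 3.24, 5.31, 6.96 and 12.2 TPM, and the 12 h cows had 3.31, 3.85, 7.52 and 11.8 TPM. Every treated cow was above every control, and the 2 treated groups overlapped over nearly their whole range. MMP1 rose by 5.68 on the log2 scale at 4 h (SE 0.67, adjusted p = 0.000235) and by 5.93 at 12 h (SE 0.67, adjusted p = 3.25e-05). Because controls gave only 12 counts, the ratio of summed counts, scaled by library size, is also given with its counting interval: 52.7 at 4 h (95% exact interval 29.98 to 103; 659 counts) and 61.0 at 12 h (34.6 to 119; 583 counts). The interval covers counting error and not the spread between cows. Between 4 h and 12 h the difference was 0.25 (SE 0.46, 95% interval -0.74 to 1.24, adjusted p = 0.675), and it was -0.08 on the log2(TPM + 1) scale. MMP1 counts were not whole in 10 of the 12 libraries, which means that RSEM divided some reads between MMP1 and other transcripts.

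MMP3 (stromelysin 1), which cuts non-fibrillar matrix proteins and the precursors of other MMPs, lies beside MMP1 at chr15:5779177-5785763 (ARS-UCD1.2) and remained scarce. One control had 0.04 TPM from 1 count, and the other 3 had none. The 4 h cows had 0.1, 0.13, 0.19 and 0.4 TPM, and the 12 h cows had 0.19, 0.29, 1.42 and 1.61 TPM. The high values at 12 h came from cow7475 and cow7382, which gave 22 and 30 of the 62 counts of that group. The ratio of summed counts to controls was 16.3 at 4 h (95% exact interval 2.56 to 682) and 77.8 at 12 h (13.5 to 3122), both against 1 count. In the fit with no count minimum the adjusted p was 0.0924 at 4 h and 0.000732 at 12 h, where 5.95% and 15.3% of the 20573 genes in that fit rose. MMP3 also rose from 4 h to 12 h, by 2.30 on the log2 scale (SE 0.73, adjusted p = 0.0264), as did 13.6% of those genes.

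MMP1 and MMP3 sit in a cluster of 8 MMP genes on chromosome 15 that spans 482.7 kb (positions 5670942 to 6153615), and the cluster did not respond as 1 unit. Besides MMP1, only MMP12 and MMP7 of the cluster were past the count minimum. MMP12, the macrophage elastase, rose from 0.16 to 1.01 TPM in controls to 8.64 to 31.4 TPM at 4 h and 19.3 to 30.1 TPM at 12 h. Its log2 fold change was 4.98 at 4 h (SE 0.47, adjusted p = 4.91e-05) and 5.70 at 12 h (SE 0.47, adjusted p = 6.79e-06). MMP13, the third collagenase, had 2 counts over the 4 controls, 2 over the 4 h cows and 40 over the 12 h cows. That is 25.1 times the control rate at 12 h (95% exact interval 6.51 to 214; adjusted p = 0.00185 with no count minimum). As for MMP1, the exact interval leaves out the spread between cows, and cow7475 gave 18 of the 40 counts. MMP7 (matrilysin) did not pass the test at either time, with 1.17 to 3.36 TPM in controls and 1.67 to 3.45 TPM at 12 h. MMP8, the neutrophil collagenase, had at most 1 count in any library, and MMP20 and MMP27 had at most 2 and 3.

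The gelatinases MMP2 and MMP9, which cut denatured collagen and basement membrane collagen, changed less, and their calls depended on single cows. MMP2 (gelatinase A) lies at chr18:23752891-23780118 (ARS-UCD1.2). Its controls had 179, 222, 274 and 466 TPM, the 4 h cows 207, 208, 226 and 296 TPM, and the 12 h cows 224, 283, 465 and 565 TPM. The 3 groups overlapped, and the highest value in controls and at 12 h came from cow4285 and cow6314, which also led in fibroblast markers. Its log2 fold change was -0.24 at 4 h (SE 0.29, adjusted p = 0.624) and 0.73 at 12 h (SE 0.29, adjusted p = 0.0557). Without control cow4285 the value was 0.09 at 4 h and 1.08 at 12 h (adjusted p = 0.00540), and without both cows together it was 0.92 at 12 h (adjusted p = 0.0121). DESeq2 also called the rise at 12 h (0.73, adjusted p = 0.0257), as did fits without mitochondrially encoded genes, with the transcript length offset, or without cow5266 or cow6456 (0.76 to 0.87, adjusted p 0.0288 to 0.0496). MMP2 rose between 4 h and 12 h by 0.97 (SE 0.29, adjusted p = 0.0165). This call was lost without 12 h cow7475 (0.81, adjusted p = 0.0566), without cow6455 and cow6314 together (0.76, adjusted p = 0.0881) and on the log2(TPM + 1) scale (0.63, adjusted p = 0.117).

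MMP9 (gelatinase B), a product of neutrophils and macrophages among other cells, lies at chr13:74746976-74754303 (ARS-UCD1.2). It had 6.69, 10.3, 12.3 and 13.4 TPM in controls, 7.58, 11.6, 16.3 and 19.5 TPM at 4 h, and 10.3, 17.8, 18.0 and 18.3 TPM at 12 h. The lowest 12 h value, from cow6314, lay within the control range, and the other 3 lay above it. Its log2 fold change was 0.41 at 4 h (SE 0.33, adjusted p = 0.443) and 0.93 at 12 h (SE 0.33, adjusted p = 0.0342). The 12 h call was lost when any 1 of cow4285, cow6464, cow5266, cow7382 or cow7475 was left out (log2 fold changes 0.80 to 0.94, adjusted p 0.0584 to 0.0872) and in TPM (0.56, adjusted p = 0.117). Between 4 h and 12 h the difference of 0.52 (adjusted p = 0.210) became 0.96 (adjusted p = 0.0188) without cow6455 and cow6314. The summed TPM of 7 neutrophil markers was 13.4 to 39.5 in controls and 82.4 to 249 at 12 h, and S100A8 was at 0 in 1 or more controls. Whether these cells took part in the change of MMP9 was not tested.

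MMP14, the membrane type 1 MMP, cuts fibrillar collagen at the cell surface and activates MMP2. The gene lies at chr10:21967557-21978162 (ARS-UCD1.2). Controls had 81.2, 101, 103 and 162 TPM, the 4 h cows 134, 163, 169 and 172 TPM, and the 12 h cows 244, 256, 309 and 315 TPM. At 12 h every cow was above every other cow of the study, and at 4 h only control cow4285 reached into the treated range. MMP14 rose at 12 h by 1.65 (SE 0.18, adjusted p = 2.59e-05), a fold of 3.13, and between 4 h and 12 h by 1.09 (SE 0.18, adjusted p = 0.000391). At 4 h the log2 fold change of 0.56 (SE 0.17) stood at the threshold, with an adjusted p of 0.0508. It passed with DESeq2 (0.58, adjusted p = 0.0114), with RLE scaling, a count minimum of 50 or no mitochondrially encoded genes (0.56 to 0.58, adjusted p 0.0437 to 0.0484), without control cow4285 (0.78, adjusted p = 0.00441) and without 4 h cow4291 (0.66, adjusted p = 0.0362).

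MMP19, an MMP known from vascular and immune cells, lies at chr5:57426768-57433048 (ARS-UCD1.2). It had 10.9, 11.2, 13.4 and 16.3 TPM in controls, 17.2, 18.0, 21.4 and 30.3 TPM at 4 h, and 17.2, 23.5, 23.7 and 29.5 TPM at 12 h. All treated cows lay above all controls, the closest by less than 1 TPM. MMP19 rose by 0.79 at 4 h (SE 0.18, adjusted p = 0.0149) and by 1.18 at 12 h (SE 0.19, adjusted p = 0.000282). Both calls held in every alternative that was run. The difference between 4 h and 12 h was 0.39 (SE 0.18, 95% interval -0.0022 to 0.79, adjusted p = 0.0935). It passed with the transcript length offset (0.48, adjusted p = 0.0479) and, at 0.60 (adjusted p = 0.0105), without 4 h cow6456, the highest of its group.

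MMP11 (stromelysin 3), which is made by stromal cells and activated inside the cell by furin, lies at chr17:71231375-71239854 (ARS-UCD1.2). Controls had 5.70, 6.57, 6.59 and 7.91 TPM, the 4 h cows 3.19, 5.66, 6.68 and 8.09 TPM, and the 12 h cows 7.80, 8.91, 9.46 and 13.4 TPM. The 4 h values lay around the controls, and at 12 h the lowest cow was just inside the control range. Its log2 fold change was -0.14 at 4 h (SE 0.24, adjusted p = 0.746), and it was 0.08 without cow6456, the lowest. It rose by 0.86 at 12 h (SE 0.24, adjusted p = 0.0108) and by 0.997 between 4 h and 12 h (SE 0.24, adjusted p = 0.00498). In TPM the 12 h value was 0.48 with an adjusted p of 0.0917.

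TIMP3, the inhibitor bound to the matrix, rose early and then fell back. The gene lies at chr5:71388890-71459269 (ARS-UCD1.2). Controls had 104, 107, 125 and 142 TPM, the 4 h cows 253, 324, 378 and 407 TPM, and the 12 h cows 110, 135, 144 and 156 TPM. The 4 h cows stood clear of all others, and the 12 h cows overlapped the controls. At 4 h TIMP3 rose by 1.55 on the log2 scale (SE 0.18, adjusted p = 0.000249), a fold of 2.93, and between 4 h and 12 h it fell by 1.04 (SE 0.18, adjusted p = 0.000632). At 12 h the log2 fold change against controls was 0.51 (SE 0.18, adjusted p = 0.0338). That call was lost in TPM (0.19, adjusted p = 0.337), with an offset for transcript length (0.43, adjusted p = 0.0628), with no count minimum (0.48, adjusted p = 0.05004), and without control cow4285 or cow6464 or 12 h cow5266 or cow7382 (0.38 to 0.49, adjusted p 0.0641 to 0.119).

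TIMP2, the most abundant gene of the 9, did not pass the test in any of the 3 comparisons. It lies at chr19:53460671-53514937 (ARS-UCD1.2). Controls had 3781, 4709, 4965 and 5087 TPM, the 4 h cows 4783, 4817, 5824 and 6579 TPM, and the 12 h cows 2285, 4422, 4729 and 5901 TPM. The 3 groups overlapped, and the lowest values of controls and of the 12 h group came from cow4285 and cow6314, which were also lowest in luteal markers. Its log2 fold change was 0.28 at 4 h (SE 0.28, 95% interval -0.32 to 0.89, adjusted p = 0.543). At 12 h it was 0.24 (SE 0.28, 95% interval -0.36 to 0.85, adjusted p = 0.495), and it was -0.17 in TPM. Without cow6314 the 12 h value was 0.52 (adjusted p = 0.0316), so this 1 cow decided the call. Counts of TIMP2 were not whole in 10 of 12 libraries.

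**Figure D3:**
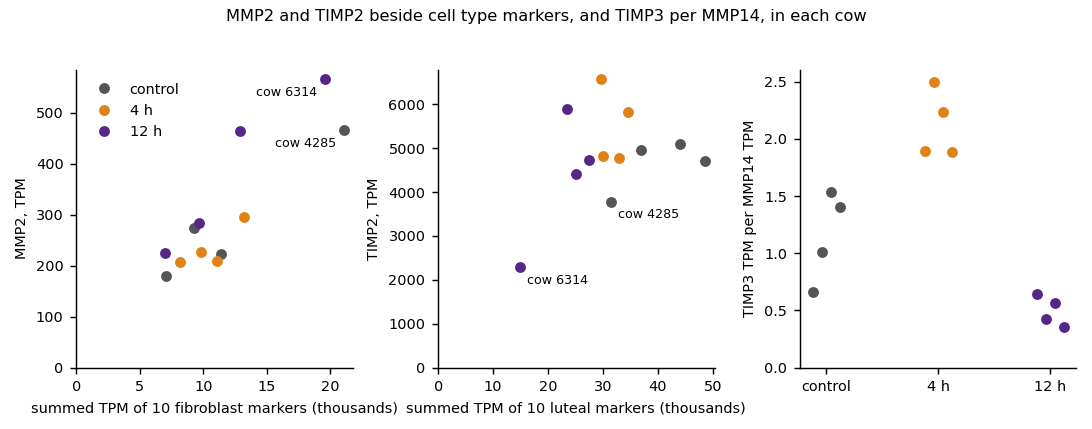
TPM of MMP2 against the summed TPM of 10 fibroblast markers (left), TPM of TIMP2 against the summed TPM of 10 luteal markers (middle), and TPM of TIMP3 divided by TPM of MMP14 (right), 1 point per cow. Cow cow4285 (control) and cow6314 (12 h) had the highest fibroblast sums, 21041 and 19535, and the TIMP3 per MMP14 values of the 3 groups did not overlap.

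TIMP3 and MMP14 were set side by side per cow. Both had higher means at 4 h than in controls, and between 4 h and 12 h TIMP3 fell while MMP14 rose. TIMP3 had 0.664 to 1.54 TPM per TPM of MMP14 in controls, 1.889 to 2.499 at 4 h and 0.358 to 0.640 at 12 h. The 3 groups did not overlap, so the 4 h cows were above and the 12 h cows below every control. The pair was picked for description from genes whose changes were known, and no test is given. TIMP2 made up 92.1% to 97.9% of the summed TPM of TIMP2, TIMP3 and TIMP4 in every cow, so that sum mainly followed TIMP2. TIMP1 was not analysed here, so neither this share nor the summed TIMP values below include it. The summed TPM of the MMP genes was 431 to 835 in controls, 543 to 672 at 4 h and 692 to 1132 at 12 h, and control cow4285 alone reached above the lowest 12 h cow. Summed TIMP per summed MMP was 4.66 to 11.8 in controls, 7.65 to 12.1 at 4 h and 2.14 to 8.30 at 12 h, and the ranges overlapped.

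Of the 14 other family genes, 9 were tested, with a median log2 fold change of 0.43 at 4 h and 0.33 at 12 h. At 4 h 4 of the 9 rose (MMP12, MMP16, MMP17 and MMP28) and none fell by edgeR, with 0 by DESeq2 and 1 downward at an unadjusted p under 0.05. At 12 h 4 of the 9 rose (MMP12, MMP17, MMP23 and MMP28) and 1 fell (MMP15). Over all tested genes 8.65% rose at 4 h, and 23.6% rose and 25.3% fell at 12 h, which is the background for this and the following lists. The lists too were chosen with earlier results of these data known. MMP17, an MMP tethered to the membrane by a lipid anchor, had 0.09 to 0.35 TPM in controls, 1.31 to 3.42 at 4 h and 2.76 to 5.36 at 12 h. Its log2 fold changes were 3.41 (SE 0.47, adjusted p = 0.000640) and 4.83 (SE 0.47, adjusted p = 1.52e-05). MMP28 (epilysin) had 7.70 to 8.60 TPM in controls, 11.3 to 18.9 at 4 h and 16.8 to 22.6 at 12 h, with log2 fold changes of 0.92 and 1.67 (adjusted p = 0.00430 and 2.06e-05). MMP16, another membrane MMP, rose by 1.06 at 4 h (adjusted p = 0.0147) and had a log2 fold change of 0.16 at 12 h (adjusted p = 0.630). Like TIMP3, MMP16 fell between 4 h and 12 h, by 0.91 (SE 0.25, adjusted p = 0.0100). MMP23 and MMP15 were at the threshold at 12 h (0.42, adjusted p = 0.0275, and -0.46, adjusted p = 0.0493), and MMP23 was at 0.01 in TPM (adjusted p = 0.969). MMP15 was at -0.78 in TPM (adjusted p = 0.00134), and at -0.30 both with the length offset (adjusted p = 0.186) and without cow6314 (adjusted p = 0.163). MMP25 and TIMP4 passed no test, with 0.33 to 2.01 and 0.74 to 3.79 TPM over all cows, and MMP24 had 4 to 10 counts per library.

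**Figure D4:**
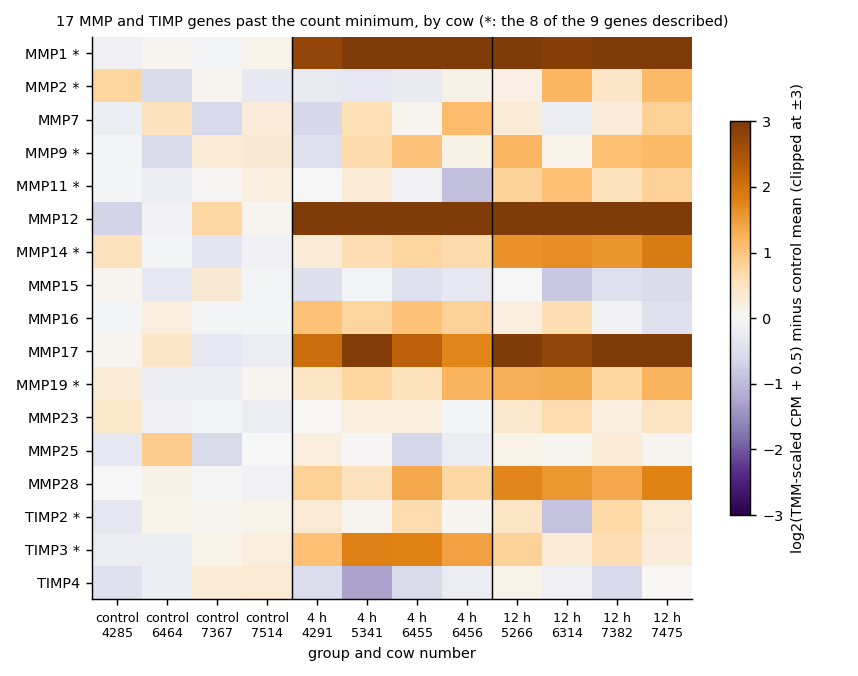
Log2 of TMM-scaled CPM (plus 0.5) of the 17 MMP and TIMP genes past the count minimum, minus the control mean of each gene, for the 12 cows (columns). Orange is above and purple below the control mean, values are clipped at 3 either way, and stars mark the genes described in full. MMP1, MMP12 and MMP17 were raised in all 8 treated cows, TIMP3 and MMP16 most at 4 h, and MMP14 and MMP28 most at 12 h.

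Genes that activate or control MMPs outside the TIMPs were followed as a list of 19 tested genes, with a median log2 fold change of 0.54 at 4 h and 0.72 at 12 h. Of these genes 6 rose and none fell at 4 h (0 by DESeq2, and 0 downward at an unadjusted p under 0.05), and 10 rose and 3 fell at 12 h, where 23.6% of all tested genes rose and 25.3% fell. In the plasmin system, which activates several MMP precursors, PLAUR (the urokinase receptor) rose by 2.30 at 4 h (SE 0.28, adjusted p = 0.000295) and by 2.49 at 12 h (SE 0.28, adjusted p = 3.25e-05). PLAT (tissue plasminogen activator) rose by 1.41 at 12 h (adjusted p = 0.000814), and PLAU (urokinase) by 0.58, with an adjusted p of 0.0498. SERPINB2 (plasminogen activator inhibitor 2) rose by 3.99 at 4 h (adjusted p = 0.00700) and was at 0.72 at 12 h (adjusted p = 0.490). TFPI2, which inhibits plasmin, rose by 2.26 and 1.55 (adjusted p = 0.000138 and 0.000284). PCSK5, a proprotein convertase, fell by 1.45 at 12 h (adjusted p = 0.000242). RECK, a membrane-anchored MMP inhibitor, fell by 0.69 at 12 h (adjusted p = 0.000573), and LRP1, a receptor that clears MMPs, fell by 0.72 (adjusted p = 0.0142). A2M, the general protease inhibitor, rose by 1.65 at 12 h (adjusted p = 0.000549). The values of PLAT, PLAU, SERPINB2, RECK, LRP1 and A2M were not followed in the alternative fits, the transcript length offset included.

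Few transcripts of the matrix proteins that MMPs cut passed the test, and their median log2 fold change was 0.05 at 4 h and 0.10 at 12 h. Of 21 tested genes none rose or fell at 4 h by edgeR (1 up and 0 down at an unadjusted p below 0.05, and 1 up and 0 down by DESeq2). At 12 h DCN (decorin) rose by 1.003 (SE 0.32, adjusted p = 0.0208) and HSPG2 (perlecan) fell by 0.82 (SE 0.23, adjusted p = 0.0114). DCN lost its call without 12 h cow6314 or either of control cow7367 and cow7514 (0.81 to 0.94, adjusted p 0.0520 to 0.0579), and HSPG2 with the transcript length offset (-0.25, adjusted p = 0.303). Without control cow4285 COL5A1, a minor fibrillar collagen, was at 1.27 at 12 h (adjusted p = 0.00447), against 0.62 (adjusted p = 0.221) with it. SPARC, a collagen-binding protein, was likewise at 0.79 without that cow (adjusted p = 0.0256) and at 0.47 with it (adjusted p = 0.185). Among 10 ADAM and ADAMTS proteases, of which TIMP3 inhibits several, ADAMTS1 (0.92, adjusted p = 0.00173) and ADAMTS5 (1.82, adjusted p = 0.00667) rose at 4 h. The 10 genes had a median of 0.24 at 4 h and 0.05 at 12 h. At 12 h none of them rose (0 by DESeq2, and 0 at an unadjusted p under 0.05). ADAMTS1 was then at 0.32 (adjusted p = 0.0920), and it passed with the length offset (0.54, adjusted p = 0.00909) and without cow7514, cow5341 or cow6314 (0.35 to 0.47, adjusted p 0.0212 to 0.0420). At 12 h ADAM17, which sheds cell surface proteins, and ADAMTS9 fell by 0.93 and 1.71 (adjusted p = 0.00107 and 0.00245), and DESeq2 also called a fall of ADAM12 (-1.03, adjusted p = 0.0307; edgeR adjusted p = 0.0652).

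Among 20 transcription factors known to act on MMP promoters, 7 rose and none fell at 4 h (0 by DESeq2, and 0 downward at an unadjusted p under 0.05). At 12 h 6 rose and 8 fell, against 23.6% and 25.3% of all tested genes, and the median was 0.43 at 4 h and 0.07 at 12 h. At 4 h 4 of the AP-1 subunits rose by more than 1 on the log2 scale, FOSB by 7.33 (SE 0.35, adjusted p = 4.23e-07), JUNB by 2.33 (adjusted p = 7.90e-05), FOS by 1.97 (adjusted p = 0.00803) and FOSL1 by 1.92 (adjusted p = 0.00505). At 12 h FOS stood at 2.57 (adjusted p = 0.000350) and FOSB at 1.90 (adjusted p = 0.000612). The largest falls of this list at 12 h were CEBPB (-1.77, adjusted p = 7.87e-05) and ETS1 (-1.61, adjusted p = 7.85e-05). SP1, a general activator, fell by 0.81 (adjusted p = 0.000276). What these factors do at the MMP genes in this tissue was not measured.

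Markers of other cells moved at the same times, and their part in the changes of the MMPs was not tested. Of 12 macrophage and monocyte markers 1 rose at 4 h (CD14, by 0.90, adjusted p = 0.0236) and 9 at 12 h, against 8.65% and 23.6% of all tested genes. None fell by edgeR or DESeq2 at either time, with 0 downward at an unadjusted p under 0.05. The median log2 fold change of these markers was -0.10 at 4 h and 1.15 at 12 h. Their summed TPM was 209 to 587 in controls, 252 to 489 at 4 h and 511 to 814 at 12 h. The upper end in controls came from cow6464, and the other 3 controls lay at 209 to 315. TYROBP and CD14 were among the risers at 12 h (1.84, adjusted p = 0.000333, and 1.52, adjusted p = 0.000254). Of 7 neutrophil markers 1 rose at 4 h and 5 at 12 h, among them S100A12 (3.42, adjusted p = 0.000373) and S100A9 (3.21, adjusted p = 0.000380). Their medians were 0.58 and 1.52. The neutrophil collagenase MMP8 stayed at 0 or 1 count in every library.

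Of 10 fibroblast markers 4 rose at 12 h (THY1, DCN, LUM and DPT, by 0.66 to 1.29), and 4 of the 10, namely COL1A1, COL1A2, COL3A1 and DCN, are also among the matrix proteins. None of the 4 passed on the log2(TPM + 1) scale, and DPT and DCN also lost their calls without cow6314 (0.90 and 0.81, adjusted p = 0.0718 and 0.0528). The median of the 10 was 0.44 at 12 h. At 4 h none of the 10 changed (0 by DESeq2, and 0 at an unadjusted p under 0.05). Of 10 pericyte and smooth muscle markers (median 0.35 at 12 h) ACTA2 and CNN1 rose at 12 h. NOTCH3 fell by 0.55 (adjusted p = 0.0367), a call that was lost without control cow4285 (-0.30, adjusted p = 0.156) and with the length offset (-0.14, adjusted p = 0.547). ACTA2 was at 1.83 with all cows (adjusted p = 0.0292) and 1.04 without cow6314 (adjusted p = 0.124). Of 12 endothelial markers (median 0.19 at 12 h) KDR, the main VEGF receptor, fell at 12 h by 1.14 (adjusted p = 6.21e-05). CLDN5, ERG and VWF rose by 0.61 to 1.05, and none of these 3 passed on the log2(TPM + 1) scale. Without cow6314 ERG was at 0.37 (adjusted p = 0.122) and VWF at 0.82 (adjusted p = 0.0933). The 10 luteal markers had a median of -1.10 at 12 h. Among them HSD3B1 and STAR, which act in progesterone synthesis, fell at 12 h by 3.15 and 2.49 (adjusted p = 5.56e-06 and 0.000213).

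The genes with the most similar profile over the 12 cows were found by the root mean square difference of log2 CPM after centring each gene, as a description. For MMP1 they were IL33 (0.50), ATP12A (0.58) and C2CD4B (0.64). For MMP14 they were RAB31 (0.18), MYLIP (0.19) and LBH (0.19), and for MMP19 they were MEX3D (0.15), NUMBL (0.20) and PHC2 (0.20). For TIMP3 they were FAM43A (0.17), KDM6B (0.21) and TLCD5 (0.21). The nearest to MMP9 and MMP11 were B4GALT6 (0.27) and FAM71E1 (0.21). IL33, an alarmin cytokine, had log2 fold changes of 5.47 at 4 h and 5.50 at 12 h, close to those of MMP1, and FAM43A had 1.66 and 0.80, in the order of TIMP3. Both genes were chosen for their similar profiles over the same cows, so this closeness follows from the choice.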

How the data were processed

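The authors deposited 1 RSEM gene table per cow with an expected count (estimated reads per gene), TPM and FPKM, on genome build ARS-UCD 1.2. The submitters' processing notes name STAR 2.5 and RSEM 1.3, and their settings are not given in the sources used here. FPKM was used only as an alternative for the ratios of mean TPM, which kept within the spread between cows. The labels do not pair cows between groups, and the 4 libraries per group are the number that the study gives for its sequencing data, while its methods give more cows per group.

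Expected counts were rounded. Genes that reached 10 counts in 4 or more libraries were fitted, all 3 groups together, with edgeR 4.0.16 (TMM, quasi-likelihood test, R 4.3.3), and p values were adjusted by Benjamini-Hochberg within each comparison over all genes tested. MMP3 and MMP13 were read from the fit with no count minimum. Depth per library is given above. SEs and 95% intervals of the edgeR log2 fold changes were calculated back from each change and the statistic of its quasi-likelihood test. They hold both counting error and the spread between cows. TPM was compared by exact two-sided permutation tests. Ratios of summed counts have exact conditional binomial 95% intervals, which cover counting error and not the spread between cows.

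Alternatives were DESeq2 1.42.0, RLE scaling, no count minimum or one of 50, only the 2 groups compared, limma 3.58.1 on log2(TPM + 1) and log2(TPM + 0.1), no mitochondrially encoded genes, a transcript length offset, each cow left out, and cow6455 and cow6314 left out together. Leaving out cow4285 and cow6314 together was chosen after seeing the data. Single genes were followed in the alternatives only if they were MMP or TIMP genes or among the up to 4 genes of a list with the smallest p at 12 h.

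The 9 genes and the 11 gene lists were chosen with earlier results of these data known. Named are all MMP and TIMP genes, up to 4 genes of each list with the smallest p at 12 h, the genes small counts refer to, and the 3 nearest profiles. Further AP-1, plasmin system and matrix genes of the lists were named after their values were seen. A gene that the rule names is not reported here. MMP23B was found as MMP23, and FPR1 was not analysed here. Scripts ran in Python 3.11.15 with numpy 2.4.6, pandas 2.3.3, matplotlib 3.10.9 and scipy 1.17.1.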

Additional observations from a re-analysis of the deposited data

Results flagged for a closer look

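Each of the 27 sets of 4 TPM values (9 genes in 3 groups) was examined for a cow far from the others by Dixon's criterion, which chance meets in about 1 in 20 sets, and 2 sets met it. MMP3 was at 0.04 TPM in control cow6464 and at 0 in the other controls, a gap that rests on 1 count. MMP9 was at 10.33 TPM in 12 h cow6314, below the other 12 h cows at 17.8 to 18.3 TPM. The same cow had the highest fibroblast and the lowest luteal marker sum of its group.

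The change from 4 h to 12 h, tested within the fit of all cows, passed for 4 of the 8 tested genes, against 46.7% of all tested genes. It was 0.97 for MMP2, 0.997 for MMP11, 1.09 for MMP14 and -1.04 for TIMP3 on the log2 scale, so TIMP3 moved against the 3 MMPs. Both changes against controls share the control cows, which cancel in this difference.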

How the results depend on the processing

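Precision was limited by 4 cows per group and, for MMP1, MMP3 and MMP13, by 12 or fewer control counts. Fits without single cows used the count minimum, so none was run for MMP3. MMP1, MMP19 and TIMP3 at 4 h, and MMP1, MMP14 and MMP19 at 12 h, kept direction and call in every alternative run. The calls of MMP9, MMP11 and TIMP3 at 12 h depended on the scale or on single cows, as given above. No paired analysis was possible because the cow numbers differ between groups.

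At 12 h the genes called among the 8 were 3 under limma with a TPM pseudocount of 1 and 3 with one of 0.1, against 6, and 4 to 7 with 1 cow left out. Genes called at 4 h over all genes were 2062, and 1278 to 2178 with 1 cow left out (1278 without control cow7514 and 1309 without 4 h cow5341). With the transcript length offset 1107 rose and 1209 fell at 4 h, against 1253 and 809. On log2(TPM + 1), 1509 rose and 5631 fell at 12 h against controls (3417 and 3665 with TMM), and 1304 rose and 5194 fell between 4 h and 12 h (3252 and 3512 with TMM).

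Direction reversed only in differences that did not pass the test. For MMP1 between 4 h and 12 h the values were -0.0764 and -0.0912 by limma (pseudocounts 1 and 0.1) and -0.27 to 0.70 with 1 cow left out. For MMP2 at 4 h they were 0.0871 without cow4285 and cow6314 and -0.389 to 0.0871 with 1 cow left out, and for MMP11 at 4 h -0.31 to 0.0847. For TIMP2 they were -0.17 at 12 h under both limma settings. Between 4 h and 12 h TIMP2 was at 0.32 without cow6455 and cow6314, at 0.23 without cow4285 and cow6314, and at -0.25 to 0.23 with 1 cow left out.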
